A study of Homo sapiens with 12 samples.

Results

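The 50 genes described here encode the factors that start, extend and end protein synthesis in human cells: the initiation factors, the elongation factors, 2 cytoplasmic poly(A)-binding proteins, and the release, recycling and anti-association factors. They were taken from a fixed list of gene symbols that uses no measured value but was drawn up with earlier results of these data known, and all 50 were found among the 58721 genes of the count tables. The cells were HepG2, an established line from a human liver tumour with an epithelial-like form. Cells received siControl, a control knockdown, or siIGF2BP3, a transient knockdown of IGF2BP3, an RNA-binding protein that the study examined as a reader of internal 7-methylguanosine in mRNA. Both groups were treated with cycloheximide at 100 µg/mL for 4 min, 2 days after the knockdown, and each gave 3 Input libraries (RNA abundance) and 3 RPF libraries (ribosome-protected fragments of 28 to 30 nucleotides), 12 in all. The data therefore come from 1 cell line and 1 time after a transient knockdown, and the labels do not say whether the replicates came from separate cultures, so the p-values below measure the spread between these libraries, which may be technical.

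In the initiation pathway, eIF2 brings the initiator tRNA to the small ribosomal subunit, eIF2B recharges eIF2 with GTP, eIF3 holds the assembling complex together, and the eIF4 factors bind the mRNA cap and unwind the leader. EIF1, EIF1AX, EIF5 and EIF5B then select the start codon and join the large subunit, eEF1 and eEF2 drive elongation, and ETF1, GSPT1 and ABCE1 end translation and recycle the ribosome. Many of these factors are themselves made from 5′ terminal oligopyrimidine (TOP) mRNAs, whose first base is a C followed by an unbroken run of pyrimidines, and whose translation is known to be switched on by mTOR and held back by LARP1. Several also have many processed pseudogenes, so that a short footprint may match more than the gene itself.

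The libraries held between 11219750 and 31510601 counts. The targeted IGF2BP3 mRNA lay at 127 to 133 counts per 1000000 (CPM) in the siControl Input libraries and at 97.9 to 105 CPM in the siIGF2BP3 Input libraries, and at 74.6 to 78.1 against 21.9 to 28.0 CPM in the footprints, so no library went against its label. All 8 hepatocyte markers examined were detected in every group, with summed levels of 56583 to 57230 CPM in siControl Input and 51929 to 52049 CPM in siIGF2BP3 Input, which did not overlap, while 3 fibroblast markers summed to at most 0.636 CPM. Of the immune markers LYZ lay at 3444 to 3804 CPM in Input and CD68 at 19.7 to 24.8 CPM. PTPRC, which defines leukocytes, was at 0 in every Input library. The endothelial markers summed to at most 6.49 CPM. Of the footprint libraries, siControl replicates 2 and 3 differed by less than counting noise (mean chi-square of 0.941 per gene) and were counted as 1 sample, giving n = 2 in means and SDs. The main fits nevertheless kept them as separate libraries, so the SEs and p-values of footprints, TE and the ratio of footprints to Input, DESeq2's included, rest on more libraries than distinct samples, and the footprint and TE calls with the pair summed are given beside theirs. The first siIGF2BP3 footprint library stood apart from the other siIGF2BP3 libraries, with mean chi-squares of 19.8 and 21.5 against 1.15 between those others, and the counts of footprint and TE calls below are given with and without it.

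The sequences at the transcription start bear on the TOP grouping, and the RefSeq table (GRCh38.p14) held a start site for 40 of the 50 members, at 56 starts. The search was for a C as the first transcribed base followed directly by 4 or more pyrimidines (C or T), read on the transcribed strand only. The first 25 transcribed bases are shown for the 10 members that held such a start, with the tract in capitals. EEF1G, a known TOP gene without the tract, is shown last. Its annotated start lies 1 base before a C, but the pyrimidine run from that C is too short for the rule. Starts shifted by 1 base were not searched for any member.
EEF1A1, chr6:73521008-73521032, minus strand: CTTTTTCgcaacgggtttgccgcca
EEF1B2, chr2:206159895-206159919, plus strand: CCTTTTTCCTCTCTTCagcgtgggg
EEF2, chr19:3985439-3985463, minus strand: CTCTTCCgccgtcgtcgccgccatc
EIF3F, chr11:7987337-7987361, plus strand: CTTCTTTCTCgacaagatggccaca
EIF4B, chr12:53006456-53006480, plus strand: CTTTTgcgttctctttccctctccc
EIF3D, chr22:36529142-36529166, minus strand: CTCTTTTCCTggtttctcaagagtg
EIF3K, chr19:38619188-38619212, plus strand: CTCTTCCTgttcccgtccttgagga
EIF3M, chr11:32583831-32583855, plus strand: CTTTTCCggtcggcgtggtcttgcg
EIF2S3, chrX:24054956-24054980, plus strand: CTCTTTTggcaacatggcgggcgga
EIF4A2, chr3:186783577-186783601, plus strand: CTTTTCagtcgggcgctgagtggtt
EEF1G, chr11:62573867-62573891, minus strand: actttgcggcagcgccgagaacccc

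The first 5 belong to a list of 10 known TOP mRNAs among the members (EEF1A1, EEF1B2, EEF1D, EEF1G, EEF2, PABPC1, EIF3E, EIF3F, EIF3H and EIF4B). The next 5, in which EIF3D, EIF3K and EIF3M belong to the same complex, were not on that list. By symbol, 10 of 40 members (25%) held the tract at one of their starts. Over the whole table it was 5.14% of the 27305 symbols and 4.07% of the 35116 starts. The 10 were 5 of the 6 listed TOP members with a start and 5 of the 34 other members with a start. EEF1D, EIF3E, EIF3H and PABPC1 of the list had no start in the table. A match is a description of the letters at an annotated start and was not measured in HepG2 cells.

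The mRNAs of the members differed widely in level. On a scale per length (TPM, over the exon length of the deposited gene models), the 3 highest in siControl Input were EEF1A1, which delivers aminoacyl-tRNA to the ribosome, at 3278 ± 132 (SD, n = 3), EEF1B2, a subunit of its exchange factor, at 1864 ± 71.9 (SD, n = 3), and PABPC1, the main cytoplasmic poly(A)-binding protein, at 1377 ± 37.2 (SD, n = 3). EIF2B2, a subunit of eIF2B, was the lowest at 6.37 ± 0.949 (SD, n = 3). The gaps between the first 3 were larger than their SDs. The 50 members took 2.02 to 2.06% of all counts in siControl Input but 1.03 to 1.04% in siControl footprints. The 10 TOP members held most of this gap, taking 1.14 to 1.20% of Input counts and 0.329 to 0.331% of footprint counts, while the other 40 members took 0.859 to 0.878% and 0.702 to 0.711%. These shares leave out counts assigned to the pseudogene copies described below. For EEF1A1, the copies held 81.4% of the summed counts in footprints and 16.2% in Input. The gap is thus partly one of where reads were counted, and shares with copies added are not given here.

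The ratio of footprints to Input in siControl cells was fitted for each member relative to all genes. Of the 50 members, 21 had relatively more footprints than Input and 26 relatively fewer at an adjusted p under 0.05, where 89.9% of all 12858 genes tested passed in either direction (45.1% higher and 44.8% lower), so that the count itself is near the background. The groups of members lay at different levels. The median log2 ratio was -1.68 over the 10 TOP members and 0.02 over the other 40, against 0.00 over all genes. The elongation group held EIF5A, EEF2, EEF1A1, EEF1B2, EEF1D, EEF1G and, by its name, EEF1E1. By role, the medians ran from -1.80 for the 2 poly(A)-binding proteins and -1.62 for the 7 members of the elongation group to higher values. They were 0.10 for the 13 eIF3 subunits and 0.82 for the 5 eIF2B subunits. With the counts of pseudogene copies added to their parent genes, as described below, these medians became -1.69, -0.21, 0.43 and 0.82. The low median of the elongation group thus depended on the copies. None of these medians takes account of the coding share of the mRNA, also described below. With both adjustments the 5 eIF2B values were 1.51 (EIF2B1), 2.87 (EIF2B2), 0.10 (EIF2B3), -0.79 (EIF2B4) and -1.40 (EIF2B5). The high eIF2B median thus did not hold with both adjustments.

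At the low end of the ratio stood 4 members. EIF4EBP2, a repressor that binds the cap-binding protein eIF4E, had 352, 322 and 325 CPM in siControl Input and 23.5, 21.4 and 21.4 CPM in siControl footprints, a log2 ratio of -3.75 ± 0.05 (SE). EIF4B, which stimulates the helicase eIF4A, had 936, 868 and 898 CPM in Input against 89.0, 88.6 and 91.8 CPM in footprints (log2 ratio -3.17 ± 0.04, SE). PABPC1 had 1885, 1803 and 1819 against 243, 229 and 234 CPM (log2 ratio -2.81 ± 0.04, SE). For each of them the Input and footprint libraries were far from overlapping. EEF1A1 had 5322, 5749 and 5336 CPM in Input against 934, 940.1 and 952 CPM in footprints (log2 ratio -2.38 ± 0.04, SE). EIF5B, the GTPase that joins the subunits, came next at -2.29 ± 0.05 (SE).

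At the high end were EIF6, which keeps free large subunits from joining, with 101, 95.5 and 98.4 CPM in Input and 402, 393 and 397 CPM in footprints, and a log2 ratio of 2.17 ± 0.04 (SE). EIF3K, a small eIF3 subunit, had 40.7, 44 and 41.2 against 156, 155 and 156 CPM, a log2 ratio of 2.04 ± 0.04 (SE). EIF2B2 had 11.3, 8.72 and 9.13 against 34.7, 35.5 and 36.5 CPM, a log2 ratio of 2.03 ± 0.08 (SE). The order of EIF3K and EIF2B2 was not resolved, since they differed by less than their errors. EIF3I, a further eIF3 subunit, followed with 77.6, 87.1 and 82.8 against 278, 270.1 and 285 CPM (log2 ratio 1.90 ± 0.04, SE). This order is that of the deposited counts. With copies added, as described below, EIF4A1 was the highest member at 2.48. With copies and coding share both taken into account, EIF2B2 was highest at 2.87, followed by EIF4H at 2.07 and EIF3F at 2.02. EIF6 then stood at 1.52, EIF3I at 1.28 and EIF3K at 1.19.

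**Figure D1:**
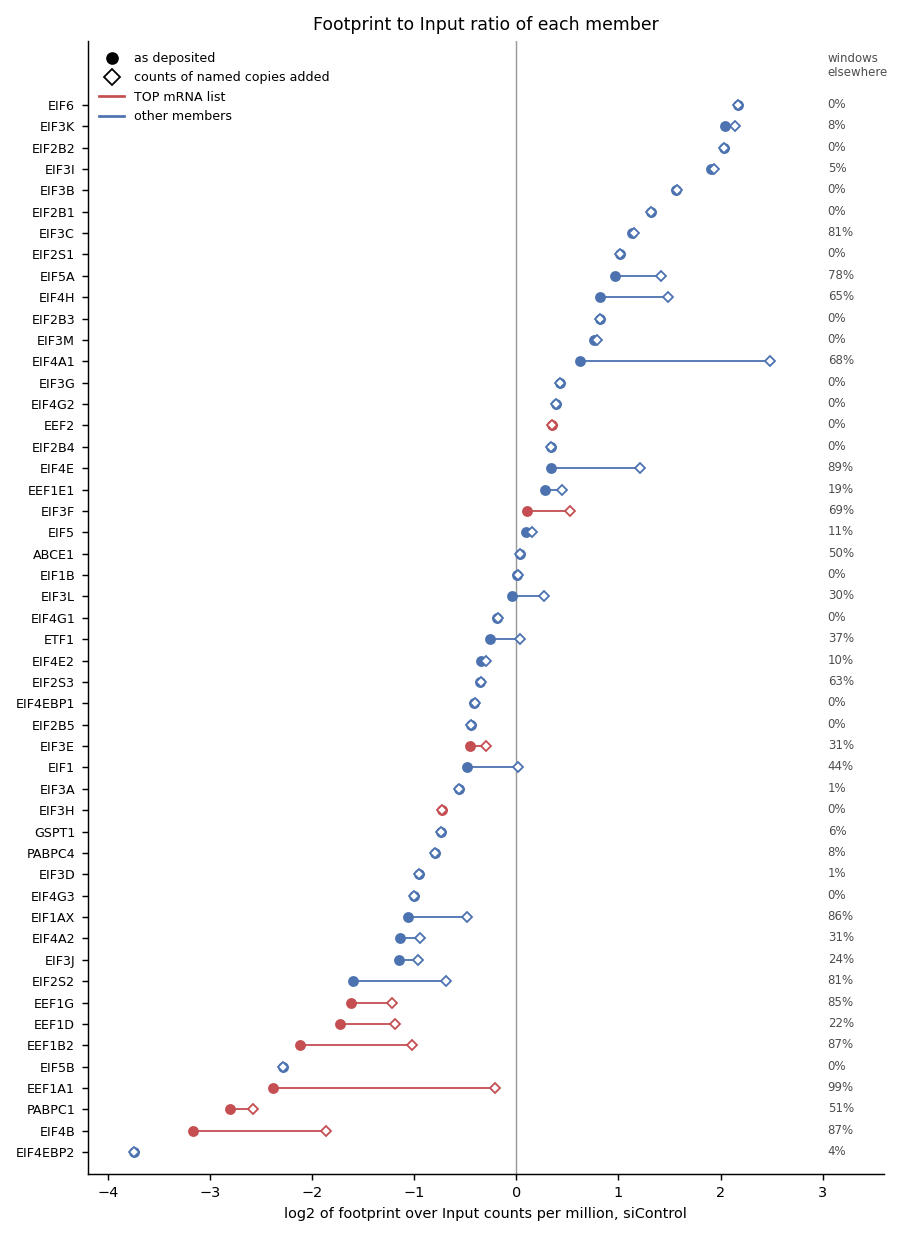
Log2 ratio of footprint to Input CPM in siControl cells (x axis) for each of the 50 members (y axis, sorted), as deposited (filled circles) and with the counts of named copies added (open diamonds). TOP members are red and the others blue, and the percentages give the share of 29-base coding windows that also occur elsewhere in the genome. EEF1A1 moved from -2.38 to -0.21, whereas EIF5B and EEF2, with almost no shared windows, did not move.

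Many members shared stretches of coding sequence with other places in the genome, and how reads that match several places were counted is not given in the sources used here. In every 29-base window of each main coding sequence, exact matches elsewhere in hg38 were sought on both strands. EEF1A1 was the extreme, with 98.8% of its windows found at another place and 19.2% at 10 or more. EIF4E, EEF1B2, EIF4B, EIF1AX and EEF1G followed at 88.8, 87.0, 86.8, 85.6 and 85.4%. At the other end, 18 members had under 1% of windows shared, among them EEF2 and EIF3H of the TOP list with 0% each.

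Of the detected genes, 63.2 to 66.0% had fractional deposited values in footprint libraries, against 31.8 to 33.3% in Input. Genes named as copies of EEF1A1 (49 by symbol, 48 with counts) held 81.4% of the counts summed over EEF1A1 and its copies in footprints and 16.2% in Input. For EIF4A1, the main eIF4A helicase, the share of the copies was 72.4% in footprints and 0.654% in Input, for EIF4B 62.0 and 5.68%, and for EEF1B2 53.6 and 0.800%. In each of these the copies held a larger share in footprints than in Input. EIF3C and its near-identical neighbour EIF3CL split their counts almost evenly in both assays (49.3% and 49.9% in the copy), so the value of EIF3C alone is uncertain. EIF2S3 and ABCE1 had 63.2 and 50.4% of windows elsewhere but no copy found by symbol, so nothing was added to them.

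When the counts of named copies were added to their parent, EEF1A1 rose from a log2 ratio of -2.38 to -0.21, EIF4B from -3.17 to -1.86, EEF1B2 from -2.12 to -1.02 and EIF4A1 from 0.62 to 2.48. PABPC1 moved less, from -2.81 to -2.58. The median of the TOP members went from -1.68 to -0.87 and that of the others from 0.02 to 0.10. Across the 50 genes, which are not independent replicates, the ratio and the share of shared windows had a Pearson's r of -0.31 and a Spearman's rho of -0.37 as deposited, and -0.05 and -0.18 after the addition.

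A ratio of whole-gene counts also depends on how much of an mRNA is coding, since footprints come from the coding part. The coding sequence was 4.81% of the EIF4EBP2 mRNA, and correcting for that share against 11060 genes moved EIF4EBP2 from -3.75 to -0.57, at the 34th percentile. With both adjustments, EEF1A1 stood at the 48th percentile of genes, EEF2 at the 34th and EIF3F at the 93rd, while PABPC1 was at the 2nd, EIF5B at the 3rd, EEF1D and EEF1G at the 7th and EIF4B and EEF1B2 at the 9th. The TOP members did not share 1 level of footprint ratio, and their adjusted log2 values ran from -3.19 for PABPC1 to 2.02 for EIF3F, with a median of -1.43 against 0.00 for the other members. With copies added but no coding share correction they ran from -2.58 for PABPC1 to 0.53 for EIF3F. The coding sequence was 15.5% of the annotated EIF3F mRNA. The correction takes annotated mRNA lengths, and the transcripts used in HepG2 cells were not measured. The 5 members with a TOP-like start outside the list also spread widely with both adjustments, from -1.96 for EIF3D and -1.52 for EIF4A2 through -0.26 for EIF2S3 to 1.19 for EIF3K and 1.76 for EIF3M.

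Within the multi-subunit complexes, the subunits were closer to each other in footprints per kilobase of coding sequence than in Input per kilobase of mRNA. The 13 eIF3 subunits ranged from 71.3 CPM per kilobase for EIF3L to 285 for EIF3I in footprints, a 4.00-fold span, and from 12.4 for EIF3F to 161 for EIF3E in Input, a 13-fold span. The 3 eIF2 subunits spanned 1.95-fold in footprints and 14.9-fold in Input, with 81.4% of the windows of EIF2S2 and 63.2% of those of EIF2S3 shared. Copies held 50.2% of the summed counts of EIF2S2 and its copies in footprints and 6.12% in Input. EIF2S2 was already the highest eIF2 subunit in footprints, so adding its copies would widen the 1.95-fold span. All spans here use counts as deposited. The 5 eIF2B subunits spanned 3.24-fold, from 22.4 for EIF2B5 to 72.5 for EIF2B4, against 27.2-fold. For eIF3, with 11 subunits left after those with 35% or more of shared windows were set aside, the spans were 4.00-fold and 5.76-fold. The SDs of the log2 values of these 11 were 0.64 in footprints and 0.75 in Input. The Input values divide by annotated mRNA length, and the transcripts used in HepG2 cells were not measured. In each complex the lowest Input value belonged to the subunit with the longest annotated mRNA. These were EIF3F (6920 bases), EIF2S1 (4154 bases) and EIF2B2 (4304 bases, 9.73 CPM in siControl Input). The part of length in the Input spans was not tested. All spans are descriptions of single values per gene, with no test.

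**Figure D2:**
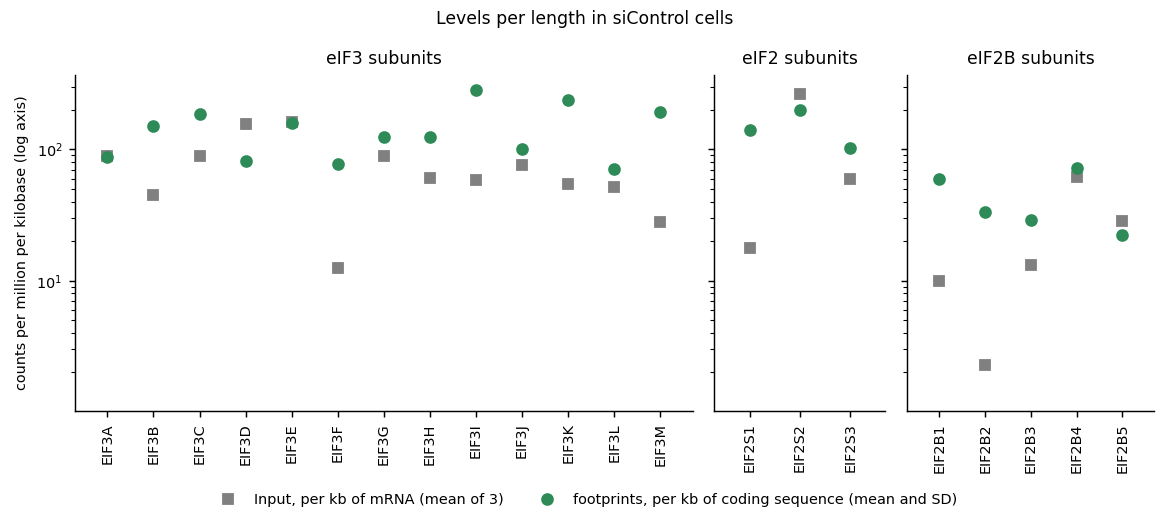
Levels per kilobase in siControl cells for the subunits of eIF3, eIF2 and eIF2B (log y axis, CPM per kilobase). Green circles are footprints per kilobase of coding sequence (mean and SD, n = 2) and grey squares Input per kilobase of mRNA (mean, n = 3). With counts as deposited, without copies added, the green points span 4.00-fold in eIF3, 1.95-fold in eIF2 and 3.24-fold in eIF2B, less than the grey ones.

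After knockdown of IGF2BP3 the RNA of 3 members was lower, all of them subunits of eIF3, and most of the others had small negative values that did not pass the test. Values are relative to the library total, so a change in total RNA per cell would not be seen. All 50 members passed the filter on low counts. Of these, 3 fell and 0 rose at an adjusted p under 0.05, with 5.96% of all 14759 genes called (1.9% lower and 4.05% higher), so the share of members called was about that of all genes. The log2 fold change was below 0 for 41 of 50 members, against 49.5% of all genes. The median over the members was -0.08 and that over all genes 0.00, and 18 members had an unadjusted p under 0.05. The share of all genes at an unadjusted p under 0.05 is not given here. Such counts, here and below, thus have no background. All 10 TOP members had values below 0, between -0.24 and -0.06, with a median of -0.11, and the median of the other 40 was -0.07. The summed hepatocyte markers given above were also lower in siIGF2BP3 Input, and their part in these differences was not tested.

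EIF3H, an MPN-domain subunit of eIF3 (ENSG00000147677, hg38 chr8:116642130-116766925, minus strand), had 221, 259.6 and 238 CPM in siControl Input and 209, 217 and 205 CPM in siIGF2BP3 Input. The groups did not overlap, although the lowest control lay close to the highest knockdown library. The fitted log2 fold change was -0.24 ± 0.05 (SE), with an adjusted p of 0.00709 from edgeR's quasi-likelihood test. EIF3L, a PCI-domain subunit that pairs with EIF3K (ENSG00000100129, chr22:37848868-37889407, plus strand), had 136, 142 and 136 CPM against 119, 126 and 130.1 CPM. It fell by 0.19 ± 0.05 (SE) on the log2 scale, with an adjusted p of 0.0161 and no overlap. EIF3E, another PCI-domain subunit (ENSG00000104408, chr8:108201216-108435333, minus strand), had 318, 339 and 319.9 CPM against 294, 302 and 308 CPM. It fell by 0.16 ± 0.04 (SE), with an adjusted p of 0.0293, and again the groups did not overlap.

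These 3 calls were sensitive to single libraries. Without siControl Input replicate 2 none of them passed, with adjusted p of 0.116 for EIF3E, 0.0604 for EIF3H and 0.0695 for EIF3L, and the members called were then EIF3J and EIF4G1, with 4.01% of all genes called. Without siControl Input replicate 3 the single call was EIF3H, with 2.95% of all genes called, and without siControl Input replicate 1 there were 7 calls, all lower, with 6.04% of all genes called and 2.91% lower (EIF3E, EIF3H, EIF3L, EIF4A1, EEF1A1, EEF1B2 and EEF2). The fitted values stayed below 0, from -0.30 to -0.17 for EIF3H, -0.22 to -0.17 for EIF3L and -0.19 to -0.13 for EIF3E over the 6 fits that left out 1 library. EIF3H, EIF3L and EIF5B overlap genes of the opposite strand (UTP23, ANKRD54, and TXNDC9 with REV1), and whether the counting used strand is not given in the sources used here.

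**Figure D3:**
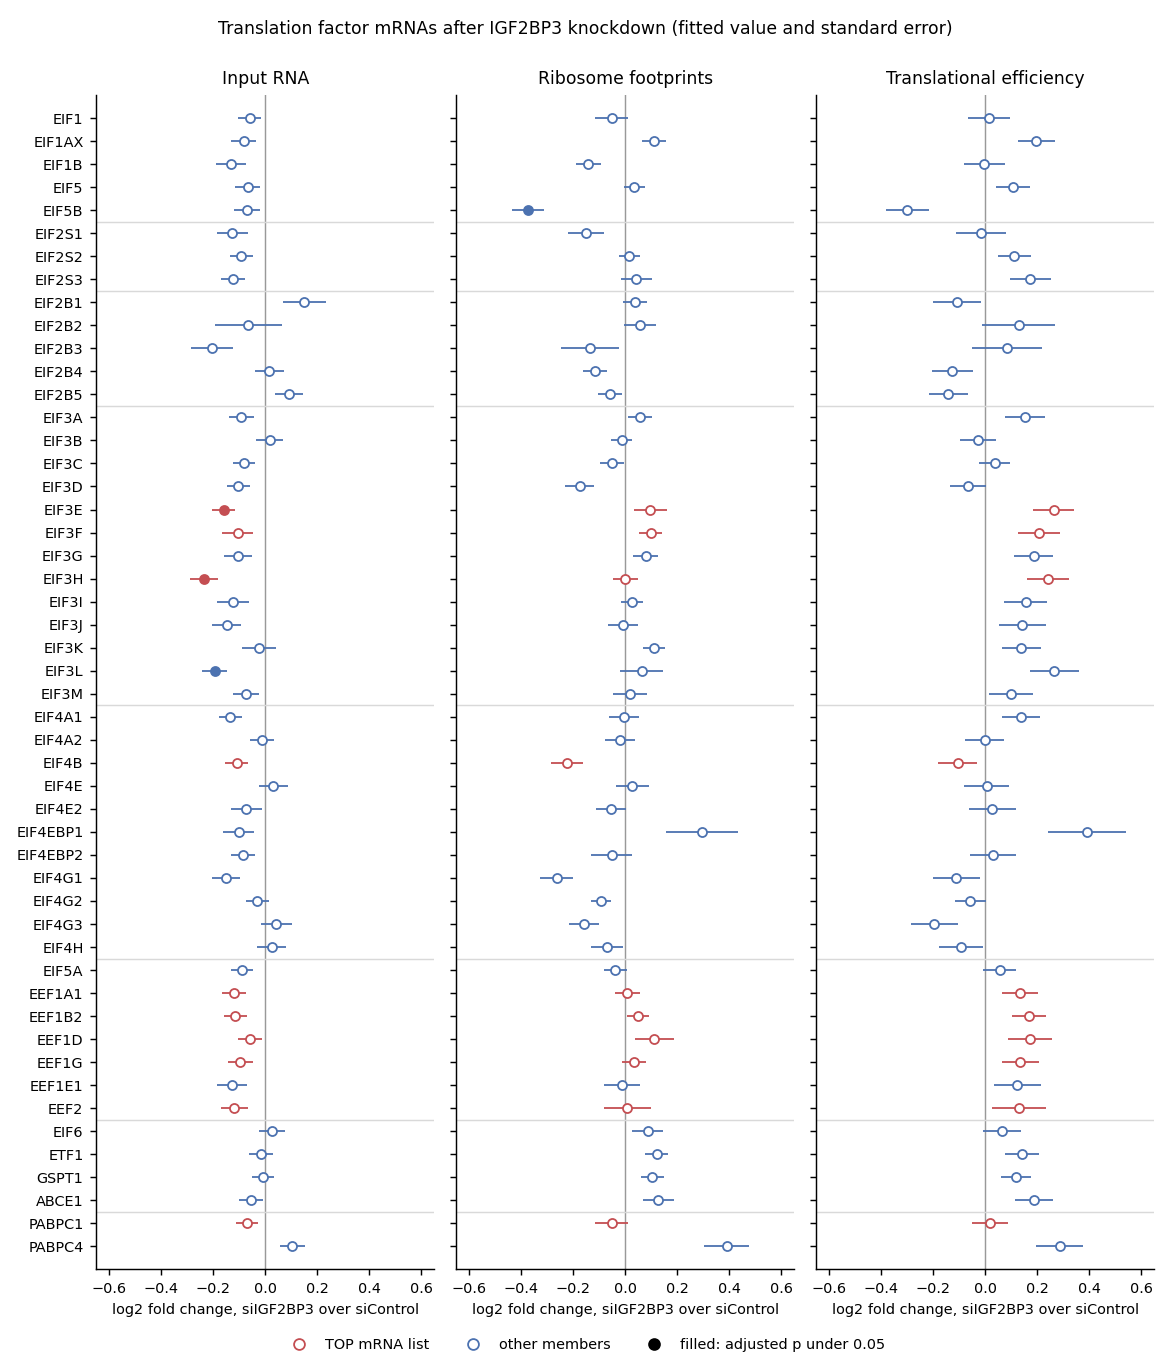
Log2 fold change of siIGF2BP3 over siControl (x axes) with its standard error for the 50 members (y axis, grouped by role) in Input RNA, footprints and translational efficiency. Red marks the TOP list and filled points an adjusted p under 0.05. In Input RNA 41 points lie below 0, with EIF3E, EIF3H and EIF3L filled. In footprints EIF5B is filled, and in translational efficiency no point is.

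By role, the RNA values below 0 were 12 of 13 for eIF3, where EIF3B was the exception at 0.02, 3 of 3 for eIF2, 5 of 5 for the start codon and subunit joining factors, 7 of 7 for elongation and 8 of 11 for the eIF4 group. Among the elongation factors, EEF1A1 had 5052, 5257 and 5299 CPM after knockdown, all below its 3 controls given above, with a log2 fold change of -0.12 ± 0.05 (SE) and an adjusted p of 0.14 that missed the threshold. EEF1B2 had 961, 1046 and 996 CPM in siControl and 957, 962 and 948 CPM in siIGF2BP3 Input. EEF2, the translocation factor, had 1002, 1079.9 and 1060.5 against 926, 1077 and 989 CPM, and its groups overlapped.

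The remaining TOP members showed equally small differences. EEF1D and EEF1G, subunits of the eEF1 exchange factor, had 372 to 409 against 375 to 402 CPM and 335 to 377 against 335 to 349 CPM. EIF3F had 86.3, 87.9 and 83.3 against 75.1, 82.1 and 90.4 CPM, and EIF4B had 893, 851 and 843 CPM after knockdown. PABPC1 went from 1803 to 1885 CPM in siControl to 1775 to 1845 CPM. All of these groups overlapped.

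The eIF2B subunits went both ways, from -0.21 ± 0.08 (SE) for EIF2B3 to 0.15 ± 0.08 (SE) for EIF2B1. The 4 termination, recycling and anti-association members (ETF1, GSPT1, ABCE1 and EIF6) lay nearest to 0, between -0.05 for ABCE1 and 0.03 for EIF6. Counting libraries alone, 9 members had all siIGF2BP3 Input libraries below all siControl ones, where 5.73% of all genes did: EIF2B3, EIF3C, EIF3D, EIF3E, EIF3H, EIF3L, EIF4A1, EIF5A and EEF1A1. In the other direction there were 4 (EIF2B1, EIF2B5, EIF4E and PABPC4), with 19.2% for all genes. On the CPM scale more members were separated downward than upward, while over all genes the reverse held.

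The footprint changes of the members were centred near 0, and 1 member was called. EIF5B (ENSG00000158417, chr2:99337353-99401326, plus strand) had 194, 172 and 175 CPM in siControl footprints and 132, 133 and 148 CPM after knockdown, with no overlap. It fell by 0.37 ± 0.06 (SE) on the log2 scale, with an adjusted p of 0.0326. The background of this call was 1.66% of 20192 genes called (0.649% lower). An unadjusted p under 0.05, for which no background is given, was held by 12 members. The median over the members was 0.01, the same as over all genes. Of the 50 values 27 were above 0, and over all genes 47.7% were below 0. Without the siIGF2BP3 library that stood apart, the median was 0.03 against 0.00 over all genes. There 30 values were above 0, and over all genes 49.5% were below 0. The Input of EIF5B was 1019, 922 and 1016 CPM in siControl and 1034, 949 and 928 CPM in siIGF2BP3, a log2 fold change of -0.07 ± 0.05 (SE) with overlapping groups. Only 0.275% of its coding windows occurred elsewhere.

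The EIF5B call depended on how the replicates were counted. With siControl footprint replicates 2 and 3 summed as 1 library, the fold change was -0.39 and the adjusted p 0.152. There 0 members were called, against 0.0673% of all genes. An unadjusted p under 0.05, again without a background, was held by 6 members. The call was also lost in 5 of the 6 fits that left out 1 library, with adjusted p of 0.0698 to 0.191. Leaving out the siIGF2BP3 library that stood apart kept it (log2 fold change -0.37, adjusted p 0.00177).

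The 2 members next in order were PABPC4 and EIF4G1. PABPC4, an inducible relative of PABPC1 (ENSG00000090621, chr1:39560816-39576790, minus strand), had 74.4, 76.2 and 72.7 CPM in siControl footprints and 107, 90 and 92.2 CPM in siIGF2BP3, a log2 fold change of 0.39 ± 0.09 (SE) with an adjusted p of 0.0749. Its Input rose less, from 143, 144 and 147 to 165, 154 and 163 CPM (log2 fold change 0.10 ± 0.05, SE, adjusted p 0.21). EIF4G1, the scaffold that links eIF4E to eIF4A (ENSG00000114867, chr3:184314495-184335358, plus strand), had 309, 292 and 299.8 against 262, 234 and 244 CPM in footprints, a log2 fold change of -0.26 ± 0.06 (SE) with an adjusted p of 0.0901. In both genes the footprint groups did not overlap, and DESeq2 called both together with EIF5B (adjusted p 0.00749 for PABPC4, 0.0315 for EIF4G1 and 0.000146 for EIF5B), with 3.91% of all genes called by DESeq2. Counting libraries alone, 11 members had all siIGF2BP3 footprint libraries below all siControl ones (14.8% of all genes) and 9 had all above (10.9%), with siControl replicates 2 and 3 as separate libraries here.

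**Figure D4:**
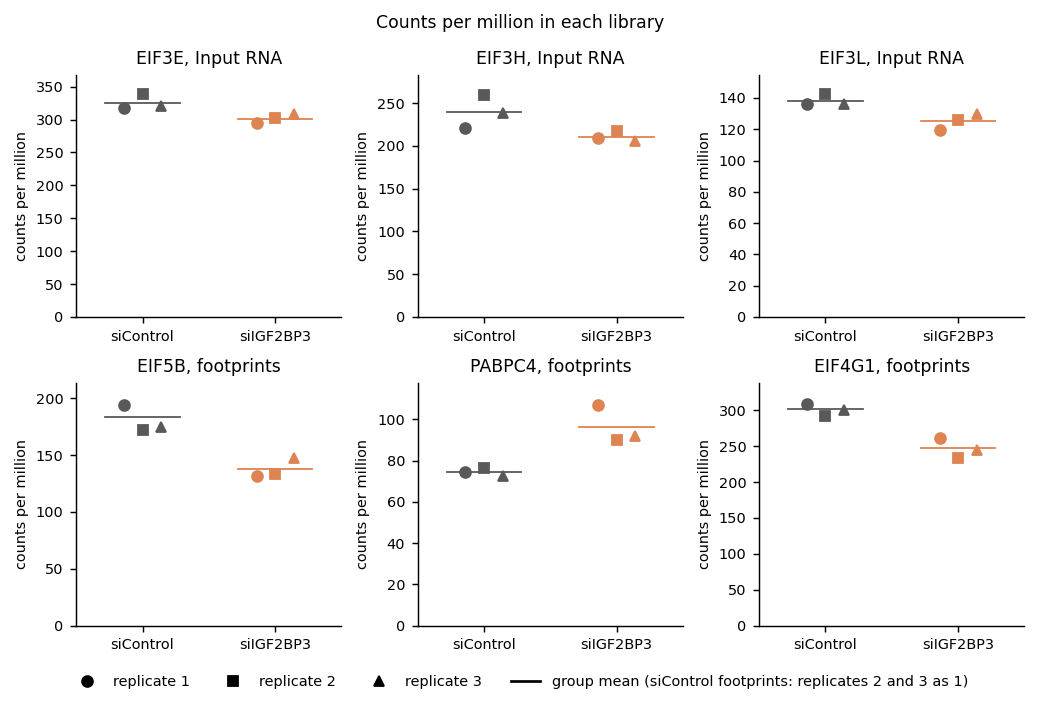
CPM in each library (y axis, from 0) for EIF3E, EIF3H and EIF3L in Input and for EIF5B, PABPC4 and EIF4G1 in footprints, with siControl in grey and siIGF2BP3 in orange. Symbols mark the replicate number and lines the group mean. In no panel do the groups overlap, and the first siIGF2BP3 footprint library of PABPC4 is the highest, at 107 CPM.

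The library that stood apart moved many members. The first siIGF2BP3 footprint library lay below all 5 other footprint libraries for 30 of 50 members (42.5% of all genes) and above them for 7 (27.3% of all genes): EIF3G, EIF4EBP1, EIF6, EEF1D, EEF2, PABPC4 and GSPT1. EEF2 had 1336 CPM there, against 1096 and 1125 CPM in the other knockdown libraries and 1191, 1199 and 1197 CPM in siControl. EIF4EBP1, a second eIF4E-binding repressor, had 77.8 CPM there against 55.6 and 57.7 CPM, with 55, 52.3 and 49.9 CPM in siControl. Its log2 fold change, 0.29 ± 0.14 (SE) with all libraries, was 0.11 without that library. What sets the library apart was not tested.

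Without it 18 members were called in footprints, 8 higher and 10 lower, with 16.5% of all genes called (7.97% higher and 8.57% lower). With siControl replicates 2 and 3 also summed, which leaves 2 libraries a group, there were 14 calls, 6 higher (EIF3E, EIF3K, EIF3L, PABPC4, ETF1 and ABCE1) and 8 lower (EIF1B, EIF4B, EIF4G1, EIF4G3, EIF4H, EIF5B, EEF2 and PABPC1), with 14.5% of all genes called (7.08% higher and 7.4% lower). With the counts of copies added instead, there were 20 calls, with 16.6% of all genes called. The 2 siIGF2BP3 libraries left in these fits differed by little more than counting noise, so their spread may be that of 1 sample. In this fit EIF4G1 fell by 0.34 ± 0.03 (SE) and EIF5B by 0.39 ± 0.06 (SE), while PABPC4 rose by 0.29 ± 0.03 (SE). The eIF4 group held 4 of the 8 lower calls (EIF4B, EIF4G1, EIF4G3 and EIF4H), and the higher calls included ETF1, which reads the stop codon, and ABCE1, which splits the ribosome afterwards.

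Translational efficiency (TE), the footprint change relative to the Input change, passed the threshold for 0 members with all libraries, against 2.17% of 13395 genes. An unadjusted p under 0.05 was held by 14 members, a count for which no background is given. DESeq2 also called 0 members, with 4.5% of all genes called by DESeq2. With siControl replicates 2 and 3 summed it again passed for 0 members, against 1.06% of all genes. There 12 members had an unadjusted p under 0.05, also without a background. The values were above 0 for 36 of 50 members, with a median of 0.11 against 0.01 over all genes. Over all genes 48.4% of the TE values were below 0. Of the TOP members 9 of 10 were above 0 (median 0.15), EIF4B being the exception at -0.11. The smallest p belonged to EIF5B, at -0.30 ± 0.08 (SE) with an adjusted p of 0.0675, followed by EIF3E at 0.26 ± 0.08 (SE) with 0.0873 and PABPC4 at 0.29 ± 0.09 (SE) with 0.113. By role, 11 of 13 eIF3 subunits and 4 of 4 termination, recycling and anti-association members were above 0. So were 7 of 7 members of the elongation group, which holds EEF1E1 by its name only. In contrast, 5 of 11 eIF4 members and 2 of 5 eIF2B subunits were above 0. Since TE contains the Input with the opposite sign, a lower Input value raises it. For EIF3H, for example, the footprints were 135, 128 and 127 CPM in siControl and 119.8, 134 and 132 CPM in siIGF2BP3, a log2 fold change of 0.00, so the TE of 0.24 ± 0.08 (SE) had the size of the RNA difference with the opposite sign.

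Leaving out the siIGF2BP3 footprint library that stood apart gave 12 TE calls, 11 higher and 1 lower, with 10% of all genes called (4.53% higher and 5.48% lower). With siControl replicates 2 and 3 also summed there were 8 calls, 7 higher (EIF2S3, EIF3E, EIF3H, EIF3L, EIF4A1, EEF1B2 and ABCE1) and 1 lower (EIF5B), and 8.05% of all genes were called (3.48% higher and 4.57% lower). With copies added instead there were 13, with 9.99% of all genes called. The values of the 8 calls ran from 0.20 for EEF1B2 to 0.36 for EIF3L, with -0.31 for EIF5B. Of the RNA calls, EIF3E, EIF3H and EIF3L thus appeared again with the opposite sign, and they share their Input libraries with the RNA comparison. Without siIGF2BP3 footprint replicate 3, EIF5B alone was called (adjusted p 0.0348), with 2.2% of all genes called.

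Related members differed in footprint ratio as deposited, although the gap between EIF1 and EIF1B closed when copies were added, and most of their responses to the knockdown were small. EIF1 and EIF1B, paralogues in start codon selection, had ratios of -0.49 ± 0.03 and 0.01 ± 0.04 (SE, log2) in siControl as deposited but 0.02 and 0.01 with copies added, and their Input changes were -0.06 and -0.13. In footprints EIF1B went from 60.8, 56.7 and 57.3 to 49.3, 53.2 and 54.0 CPM, without overlap (log2 fold change -0.14 ± 0.05, SE, adjusted p 0.202), and EIF1 from 282, 269.7 and 277 to 231, 278 and 282 CPM, with overlap (log2 fold change -0.05). Without the siIGF2BP3 library that stood apart, the footprint change of EIF1B was -0.13 (adjusted p 0.0339) and that of EIF1 0.02. The helicases EIF4A1 and EIF4A2 had ratios of 0.62 and -1.14 as deposited and 2.48 and -0.95 with copies added. Input of EIF4A1 was 205, 211 and 209 against 192, 202 and 195 CPM (-0.13 ± 0.04, SE, log2, adjusted p 0.0738), and that of EIF4A2 was 462, 514 and 486 against 497, 508 and 493 CPM (-0.01 ± 0.05, SE). The repressors EIF4EBP1 and EIF4EBP2 had ratios of -0.42 and -3.75, which became -0.38 and -0.56 with copies and coding share taken into account. PABPC1 and PABPC4 had ratios of -2.81 and -0.80, and their footprint changes were -0.05 ± 0.06 and 0.39 ± 0.09 (SE, log2), with PABPC1 at 239, 215 and 218 CPM after knockdown. Without that library, the changes were -0.12 (adjusted p 0.00857) and 0.29 (adjusted p 0.000248). None of these pairs was tested for a difference between its members.

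A separate list of 66 other translation genes (other initiation and rescue factors, kinases of eIF2 and eEF2, mTOR and MNK regulators, enzymes that modify elongation factors, and mitochondrial factors) gave 4 calls in RNA, all higher, of 64 genes tested: DPH7 (0.47 ± 0.11, SE, log2, adjusted p 0.0083) and DPH1 (0.41 ± 0.10, SE, adjusted p 0.0182), both in the synthesis of the diphthamide residue of eEF2, MRRF, the mitochondrial ribosome recycling factor (0.34 ± 0.07, SE, adjusted p 0.00424), and TSC1, a brake on mTOR (0.20 ± 0.05, SE, adjusted p 0.0227). As 5.96% of all genes were called in RNA, with 4.05% higher, the share of this list called was about that of all genes. The list had a median of -0.03, and 39 of 64 values were below 0. None of its 65 genes tested in footprints and none of the 64 tested for TE was called, against 1.66 and 2.17% of all genes. An unadjusted p under 0.05 was held by 9 and 12 of them, again without a background. DESeq2 called 1 in footprints and 0 for TE, against 3.91 and 4.5% of all genes. Without the siIGF2BP3 footprint library that stood apart, 16 genes of this list were called in footprints, 5 higher and 11 lower, against 16.5% of all genes, and 7 for TE, 2 higher and 5 lower, against 10%. With siControl replicates 2 and 3 also summed, 14 were called in footprints (14.5% of all genes) and 7 for TE (8.05%). The RNA calls on this list ranged from 1 to 5 over the fits that left out 1 library, where 2.95 to 6.04% of all genes were called. There was 1 call without siControl Input replicate 3 (2.95% of all genes) or siIGF2BP3 Input replicate 3 (3.25%). Without siIGF2BP3 Input replicate 2 there were 2 (4.24%).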

How the data were processed

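Ribosome profiling of HepG2 cells gave 3 Input and 3 RPF libraries for each of siControl and siIGF2BP3, grouped by their titles. The deposited values are estimated counts that the authors made with cutadapt, STAR and featureCounts on hg38 (named in the submitters' processing notes) and did not normalise. Many are fractional. Tool versions, strand, overlap and multi-mapping settings, and the preparation of the Input libraries are not given in the sources used here. Counts were rounded, which changed no total by more than 0.0445%. Depth was 11219750 to 31510601 counts per library.

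Symbols came from GENCODE 44, which matched 58207 of 58721 IDs (99.1%). The members, the TOP list and the other lists were chosen with earlier results of these data known. Counts were tested with edgeR 4.0.16 in R 4.3.3 (TMM factors, filterByExpr, robust quasi-likelihood test) within Input, within RPF, for RPF against Input in siControl, and for TE as an interaction term in 1 model of all 12 libraries, with TMM within each assay and all 3 siControl RPF libraries kept separate. The p-values were Benjamini-Hochberg adjusted over all genes tested, with a threshold of 0.05. The fits were first tested on simulated counts, with 50 genes changed at each size. Of the 1.25-fold changes, 72% were recovered in RNA, 14% in RPF, 6% in TE and 76% in the RPF to Input ratio. Of the 1.5-fold changes, 94, 78, 66 and 96% were. Changes of about 1.25-fold in RPF or TE were thus mostly missed there. Copies of a member were genes named by symbol as its pseudogenes or duplicate. Coding length came from the MANE Select transcript.

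Named with values were the members called in a comparison (or the 3 with the smallest p), the TOP members, the 4 highest and 4 lowest RPF to Input ratios, the 3 highest levels per length and 4 paralogue pairs. Members called in an alternative alone were named after their values were seen. Alternatives were other scaling factors, DESeq2 1.42.0, other filters, protein-coding genes alone, a gene length offset, a replicate block, added copies, summed siControl RPF replicates 2 and 3, and each library left out; combinations of these were chosen after seeing the data.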

Additional observations from a re-analysis of the deposited data

How the results depend on the processing

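The fitted changes of EIF3E, EIF3H and EIF3L in RNA, of EIF5B in RPF, and of EIF5B, EIF3E and PABPC4 in TE kept their sign under every alternative run. With each library left out in turn, the members called ranged from 1 to 7 in RNA (3 with all libraries). In RPF they ranged from 0 to 18 (1 with all libraries) and in TE from 0 to 12 (0 with all libraries). In the RPF to Input ratio they ranged from 45 to 47 (47 with all libraries). The shares of all genes called in these fits were, in the same order, 2.95 to 6.04%, 0.0532 to 16.5%, 0.935 to 10% and 88.1 to 88.9%. The high ends in RPF and TE came from leaving out siIGF2BP3 RPF replicate 1, and that in RNA from leaving out siControl Input replicate 1. In RPF, DESeq2 called 3 members (3.91% of all genes), no filter 2 (1.24%), and siControl replicates 2 and 3 summed 0 (0.0673%). Without siIGF2BP3 RPF replicate 1, adding the counts of copies gave 20 RPF and 13 TE calls (16.6 and 9.99% of all genes), and summing siControl replicates 2 and 3 gave 14 RPF and 8 TE calls (14.5 and 8.05%). The cause of these shifts was not tested. With a replicate block the counts were 3 in RNA, 1 in RPF, 0 in TE and 47 in the RPF to Input ratio, the same as without it. Of all genes, 6.31, 1.88, 1.7 and 89.7% were then called. Whether the numbers pair the samples is not settled by the data. Same-number libraries of the 2 conditions had deviations correlated at 0.04, 0.00 and -0.02 in Input and at 0.13, 0.08 and 0.03 in RPF over 11595 genes. Each RPF library correlated best with its own number, while in Input only replicate 1 did. Between Input and RPF of the same condition, only siControl replicate 1 did. The median RPF to Input ratio of the TOP members ran from -1.74 to -0.83 over the other alternatives (log2), with -0.87 when copies were added and -0.83 when siControl replicates 2 and 3 were summed as well, and the median RNA change of the members from -0.09 to -0.07. The number of distinct RPF libraries limits every footprint and TE call.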
